A study of Mus musculus with 6 samples.

Results

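Tetraspanins are small membrane proteins that cross the plasma membrane repeatedly and gather other proteins into membrane domains. The 9 tetraspanin genes described here, Cd9, Cd37, Cd53, Cd63, Cd81, Cd82, Cd151, Tspan2 and Tspan7, were picked by gene symbol from a table of 15388 genes measured in mouse hippocampus. All 9 were in the table and all 9 passed the filter on low reads. The mice carried the Cx3cr1-Cre/Ert2 and NuTRAP alleles, 1 copy of each per the methods of the study, were about 3 months old and had received tamoxifen, which switches on Cre. Cre activity then places an EGFP tag on ribosomes of cells that express Cx3cr1, the fractalkine receptor of microglia, and anti-GFP beads recover those ribosomes with the RNA they carry. The Cx3cr1 promoter is also active in macrophages at the borders of the brain, so the tag marks microglia together with related cells. From each of 3 animals, numbered 201, 207 and 208, the cleared homogenate was sequenced as Input and the bead-bound RNA as Positive, which gave 3 libraries per fraction. No untagged control animal was analysed here, so RNA that sticks to beads without a tag has no measured background.

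Within the family, Cd37 and Cd53 are known as tetraspanins of white blood cells, where they shape immune receptor signalling and adhesion. Cd9, Cd63 and Cd81 are made by many cell types and are widely used as markers of extracellular vesicles, with Cd63 held mainly in late endosomes and lysosomes. Tspan2 is known from oligodendrocytes and myelin, and Tspan7 from neurons, where it takes part in the traffic of glutamate receptors. The comparison of Positive with Input shows which tetraspanins were relatively enriched or depleted in the bead-bound RNA against the tissue as a whole.

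The promoters of 4 members are shown because they stand for both ends of the measured range and for a sequence shared by the 2 most enriched members. Each covers 250 bases before to 50 bases after a RefSeq transcription start (GRCm38.p6, the build that mm10 denotes), read 5′ to 3′ on the strand of the gene. Capitals mark GAGGAAGT or its reverse complement ACTTCCTC, a form of the purine-rich site bound by PU.1, the Ets factor that defines the macrophage lineage, and other Ets factors. The first is Cd53 (chr3:106790100-106790399, minus strand), the second Cd37 (chr7:45238790-45239089, minus strand), then start 3 of 4 of Cd82, counted from upstream, (chr2:93461802-93462101, minus strand) and last start 1 of 2 of Tspan2 (chr3:102734520-102734819, plus strand).
Cd53: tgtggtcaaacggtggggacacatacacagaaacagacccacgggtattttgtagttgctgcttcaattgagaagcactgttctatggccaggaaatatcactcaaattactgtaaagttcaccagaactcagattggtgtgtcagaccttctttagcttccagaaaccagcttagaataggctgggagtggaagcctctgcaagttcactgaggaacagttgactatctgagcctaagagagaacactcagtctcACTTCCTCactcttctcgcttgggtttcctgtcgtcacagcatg
Cd37: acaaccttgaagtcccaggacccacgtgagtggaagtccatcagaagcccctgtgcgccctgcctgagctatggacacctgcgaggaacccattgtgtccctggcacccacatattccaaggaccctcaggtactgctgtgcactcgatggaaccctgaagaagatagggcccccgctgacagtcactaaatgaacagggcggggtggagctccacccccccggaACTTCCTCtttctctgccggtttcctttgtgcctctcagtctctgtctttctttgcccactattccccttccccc
Cd82, start 3: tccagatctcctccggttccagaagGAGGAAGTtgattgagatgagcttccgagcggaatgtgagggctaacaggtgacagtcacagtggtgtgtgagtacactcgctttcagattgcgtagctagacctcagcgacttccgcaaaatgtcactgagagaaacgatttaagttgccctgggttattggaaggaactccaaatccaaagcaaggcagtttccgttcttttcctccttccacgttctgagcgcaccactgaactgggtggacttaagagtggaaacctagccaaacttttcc
Tspan2, start 1: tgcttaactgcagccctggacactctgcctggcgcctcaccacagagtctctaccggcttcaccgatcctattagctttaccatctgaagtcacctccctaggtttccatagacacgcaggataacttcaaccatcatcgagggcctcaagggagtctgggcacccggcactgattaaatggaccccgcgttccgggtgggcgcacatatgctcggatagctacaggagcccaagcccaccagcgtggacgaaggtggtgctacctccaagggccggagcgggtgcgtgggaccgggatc

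The 8 letters were searched on both strands in all 14 RefSeq promoters of the 9 members. They occurred in 3, those of Cd53, Cd37 and start 3 of Cd82, and in 3.2% of 32851 mouse promoters. The match began 25 bases before the start in Cd37, at base 7 of the transcript in Cd53, and 225 bases before the start in Cd82. The shorter core AGGAAG, which lies inside the longer motif, was in 6 of the 14 and in 35.4% of all promoters, and ACAAAG, a Sox-type core, was in 3 of the 14 and in 18.7% of all. The 2 Tspan2 promoters had no match to either Ets form, and neither had those of Tspan7, Cd81 and Cd151. Of these, Cd81 and Cd151 were higher in Positive. The core AGGAAG was in the promoter of Cd63, which was not called in either direction. Cd53 had 4 CpG dinucleotides in its window and Cd37 had 8, against 27 in Tspan7, 23 in Cd81 and a median of 7 over all promoters. The count of Cd53 was below that median and the count of Cd37 above it. Counts of this size were not particular to Cd53 and Cd37, since Cd63 had 6, and start 4 of Cd82 and start 2 of Cd151 had 4 each. These matches describe letters in a window and were not tested as binding sites.

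Of the 9 members, 6 were higher and 1 lower in Positive by the quasi-likelihood test of edgeR at an adjusted p of 0.05, with 3 libraries in each fraction. Over all 15343 genes tested, 46% were called, 24% higher and 22% lower. The 3 Positive values lay entirely above the 3 Input values for the same 6 members and entirely below for Tspan2, which was 7 of 9, against 56.4% of all genes tested, 29% above and 27.5% below. Cd53 and Cd37 stood far above the rest, Cd9, Cd82, Cd151 and Cd81 rose by smaller amounts, Tspan2 fell, and Cd63 and Tspan7 did not pass the test. The median log2 fold change of the 9 was 0.94, against -0.01 over all genes tested. Levels are given as scaled reads, that is, reads divided by a size factor of the library. Both fractions of an animal come from the same homogenate, and within a fraction the number of cells of a type and the RNA per cell cannot be told apart.

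**Figure D1:**
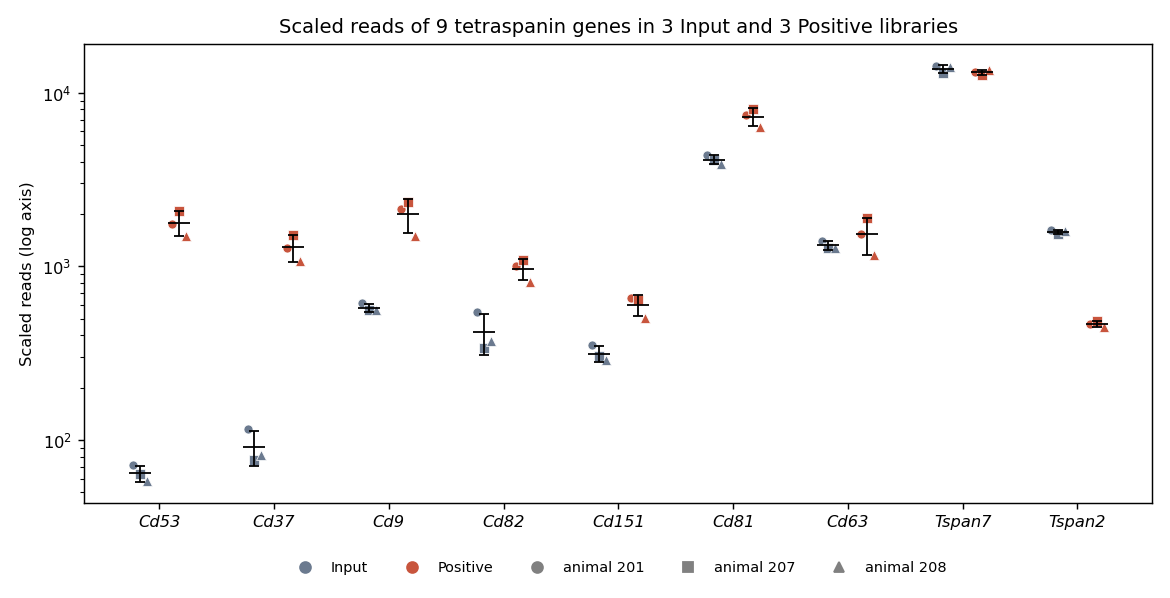
Scaled reads (log axis) of the 9 tetraspanins, ordered by fold change. Points are single libraries (grey-blue Input, red Positive, shape by animal), and bars are the mean and SD of 3 libraries. The fractions do not overlap for the 6 members on the left and for Tspan2, and they overlap for Cd63 and Tspan7.

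The leukocyte tetraspanins had the lowest Input levels per kilobase of exon among the 9 and the highest enrichment. Cd53 (ENSMUSG00000040747, chr3:106759921-106790149, minus strand) had 71.4, 63.9 and 57.7 scaled reads in the Input of animals 201, 207 and 208, and 1761, 2081 and 1504 in Positive. Every Positive library was far above every Input library. The log2 fold change was 4.79 ± 0.15 (SE), or 27.6-fold (edgeR, adjusted p = 1.94e-10). Cd37 (ENSMUSG00000030798, chr7:45233632-45239115, minus strand) had 115.3, 77.1 and 81.8 scaled reads in Input and 1281, 1507 and 1068 in Positive. Again the fractions were far apart, and the log2 fold change was 3.82 ± 0.17 (SE), or 14.1-fold (edgeR, adjusted p = 1.43e-09). Cd53 exceeded Cd37 in log2 Positive over Input in each of the 3 animals, by 0.95 ± 0.21 (SD, n = 3). No exact test over 3 animals can go under a two-sided p of 0.25, so differences between members are given as values. Both genes are in the microglia list that the study took from cell sorting. Among its 238 genes tested, Cd53 ranked 14 and Cd37 109 from the highest fold change, with a list median of 3.65.

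Cd9, which supports cell motility and membrane fusion, was next. It had 613.1, 563.8 and 558 scaled reads in Input and 2144, 2342 and 1503 in Positive (ENSMUSG00000030342, chr6:125460266-125494791, minus strand). The lowest Positive library, that of animal 208, was still well above the highest Input library. The log2 fold change was 1.79 ± 0.14 (SE), or 3.45-fold (edgeR, adjusted p = 3.37e-07).

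Cd82, known as a suppressor of metastasis, had 543.7, 339.2 and 370.2 scaled reads in Input and 1007, 1083 and 815.3 in Positive (ENSMUSG00000027215, chr2:93419111-93463140, minus strand). Its Input library of animal 201 was above the other Input libraries, but no fraction overlapped the other. The log2 fold change was 1.21 ± 0.16 (SE) (edgeR, adjusted p = 5.19e-05). Cd82 is in the cell-sorting list of oligodendrocytes, where it had the second highest fold change of 186 genes tested, in a list with 137 genes lower and 10 higher.

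Cd81, a partner of the B cell receptor complex and an abundant gene in astrocytes, had the highest level per kilobase of exon among the members that rose. Its scaled reads were 4358, 4102 and 3888 in Input and 7422, 8042 and 6317 in Positive (ENSMUSG00000037706, chr7:143052739-143067934, plus strand). All Positive values were higher, with a log2 fold change of 0.82 ± 0.10 (SE), or 1.76-fold (edgeR, adjusted p = 1.8e-05). Cd151, which binds laminin receptors of the integrin family, had 350.9, 303.5 and 289.5 scaled reads in Input and 661.2, 638.9 and 505.8 in Positive (ENSMUSG00000025510, chr7:141467392-141471473, plus strand). The fractions did not overlap, and the log2 fold change was 0.94 ± 0.13 (SE), or 1.91-fold (edgeR, adjusted p = 6.85e-05).

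Cd63 did not pass the test. It had 1403, 1275 and 1283 scaled reads in Input and 1541, 1887 and 1161 in Positive (ENSMUSG00000025351, chr10:128900989-128912822, plus strand). Positive was higher in animals 201 and 207 and lower in animal 208. The log2 fold change was 0.21 ± 0.14 (SE), with a 95% interval of -0.08 to 0.51 (edgeR, adjusted p = 0.218). The call rested on 1 library, since without the Positive library of animal 208 the log2 fold change was 0.38 (edgeR, adjusted p = 0.0038).

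Tspan7 had the most reads of the 9 and close values in both fractions. It had 14308, 12898 and 13955 scaled reads in Input and 13187, 12627 and 13513 in Positive (ENSMUSG00000058254, chrX:10485158-10596605, plus strand). The ranges overlapped, and the log2 fold change was -0.07 ± 0.08 (SE), with a 95% interval of -0.25 to 0.11 (edgeR, adjusted p = 0.546). Of 99 neuron genes in the cell-sorting list, 22 were higher and 18 lower, and their median log2 fold change was -0.01.

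Tspan2 was the member that fell. It had 1610, 1533 and 1590 scaled reads in Input and 467.6, 487.3 and 449.7 in Positive (ENSMUSG00000027858, chr3:102734529-102801513, plus strand). Libraries of one fraction lay close together and far from the other fraction. The log2 fold change was -1.75 ± 0.08 (SE) (edgeR, adjusted p = 2.49e-09), so that Positive held 29.7% of the Input level. In the oligodendrocyte list, with a median of -0.78, Tspan2 ranked 32 from the lowest of 186 genes.

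Ordered by the mean log2 Positive over Input of the 3 animals, the members ran Cd53, Cd37, Cd9, Cd82, Cd151, Cd81, Cd63, Tspan7 and Tspan2. The ranges over animals were apart between Cd53 and Cd37, between Cd37 and Cd9, between Cd81 and Cd63, and between Tspan7 and Tspan2. They overlapped between Cd9 and Cd82, Cd82 and Cd151, Cd151 and Cd81, and Cd63 and Tspan7. Within animals, Cd9 was above Cd82 in 3 of 3 animals, by 0.53 ± 0.34, and Cd151 above Cd81 in 3 of 3, by 0.12 ± 0.02 (SD, n = 3). Cd82 was above Cd151 in 2 of 3 animals, by 0.30 ± 0.31, and Cd63 above Tspan7 in 2 of 3, by 0.25 ± 0.35, differences no larger than their spread. In animal 207 the ratio was the highest of the 3 animals for 9 of 9 members, and over all genes tested it was highest there for 36.8%. Animal 208 was lowest for 5 members and animal 201 for 4.

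**Figure D2:**
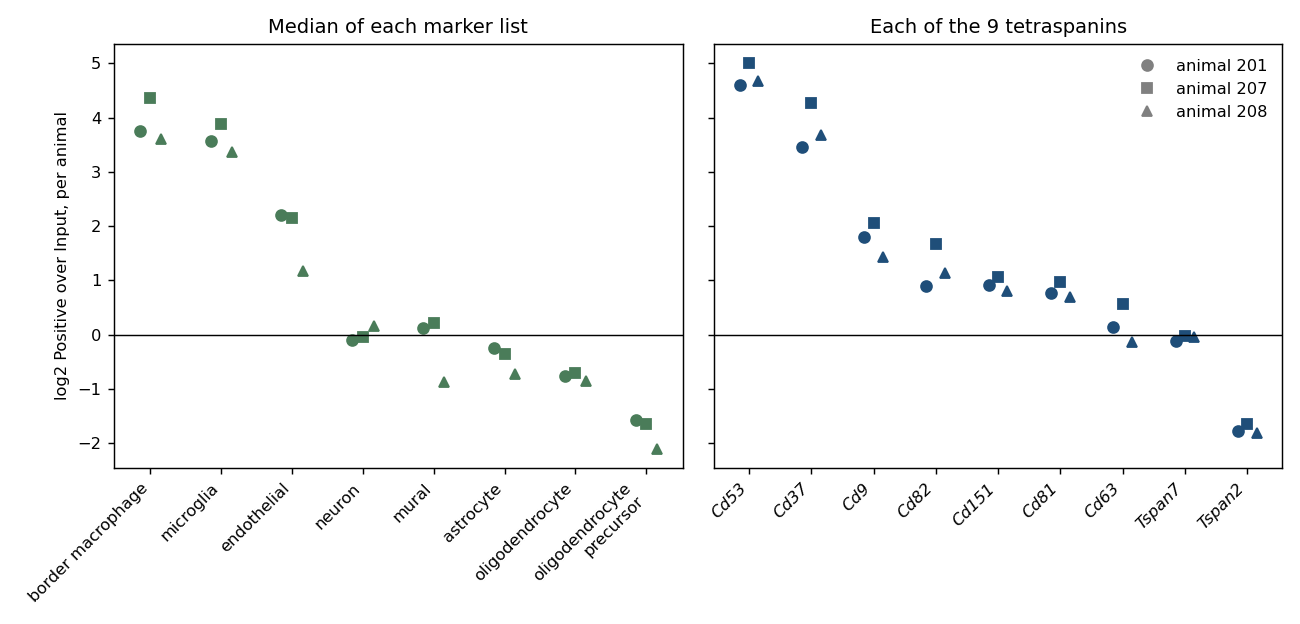
Log2 Positive over Input per animal (shape), as the median of each marker list on the left and for each of the 9 tetraspanins on the right, both on 1 vertical scale. Cd53 lies above the microglia and border macrophage lists in every animal, Cd37 lies at their height, Tspan7 at that of the neuron list, and Tspan2 below the oligodendrocyte list.

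The fraction labelled Positive carried the markers of its target cells. Cx3cr1 itself had a mean of 304.1 scaled reads in Input and 8316 in Positive, and the most abundant microglia list genes, the lysosomal Ctsd and the protease inhibitor Cst3, rose in all 3 animals, Ctsd by 2.76, 2.91 and 2.37 and Cst3 by 2.34, 2.44 and 2.13 on the log2 scale. The microglia list had 234 of 238 genes tested higher, with medians of 3.56, 3.89 and 3.37 in animals 201, 207 and 208, so that it too was highest in animal 207. All 10 border macrophage markers rose, the median being 4.08, and their summed level was 553 to 645 scaled reads in Input and 6477 to 12544 in Positive, against 77153 to 79248 and 537566 to 770789 for the microglia list. All 10 endothelial markers rose, the median being 1.94, with values per animal of 2.20, 2.15 and 1.17, and their summed level went from 1985 to 2390 scaled reads in Input to 5168 to 10607 in Positive. Cd9, Cd81 and Cd151 are also made by endothelial cells, and the part of endothelial and border macrophage RNA in their values was not tested. Of 10 mural markers, 1 was higher and 1 lower, with a list median of -0.28 and values per animal of 0.13, 0.21 and -0.88. Without Positive of animal 208 the mural median was -0.042. The summed mural level was 3218 to 3310 in Input and 2041 to 4015 in Positive. Like Cd63, the mural list was lowest in animal 208. So were the medians of the microglia, border macrophage, endothelial, astrocyte, oligodendrocyte and oligodendrocyte precursor lists, but not that of the neuron list. Over all genes tested, 40.3% were lowest in this animal. The part of mural cells in the value of Cd63 was not tested. Of 138 astrocyte genes 3 were higher and 85 lower, the median being -0.42, and the list summed to 315703 to 323698 in Input and 240227 to 298964 in Positive. The oligodendrocyte list summed to 319922 to 341649 in Input and 208287 to 216313 in Positive. The neuron list, with a median of -0.01, summed to 398042 to 408492 in Input and 359141 to 407467 in Positive, so Positive still held much neuronal RNA. All 10 oligodendrocyte precursor markers were lower, with a median of -1.76, near the value of Tspan2. Tspan2 itself is in the oligodendrocyte list, whose median was -0.78. The part of either cell type in its value was not tested. The precursor genes Pdgfra and Olig1 had mean log2 ratios of -1.69 and -2.07, the pericyte gene Rgs5 0.37, the vitronectin gene Vtn -0.37, the glutamate transporter Slc1a2 of astrocytes 0.29 and the neuronal synaptic gene Snap25 0.21. Those of the macrophage receptors Mrc1 and Stab1 were 4.10 and 3.76, and those of the endothelial genes Flt1 and Vwf 1.95 and 1.87, with the lowest value in animal 208. None of a list of 10 blood leukocyte markers was in the table, and these were not analysed here.

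Levels between genes were compared per length, as scaled reads per kilobase of annotated exon, and each gene was given as a share of the sum over the 26 tetraspanins in the table. The 9 members made up 51.3% ± 1.83 of that sum in Input and 63.2% ± 1.98 in Positive (SD, n = 3). Tspan7 was the largest in Input with a share of 21.4% ± 0.97 and had 15.1% ± 1.77 in Positive. Cd81 had 15.7% ± 0.63 in Input and was the largest in Positive with 20.4% ± 0.85. Cd53 had a share of 0.406% ± 0.0364 in Input and 8.26% ± 0.66 in Positive, and moved from rank 22 to rank 4 of 26. Cd9 had 3.11% ± 0.11 and 7.86% ± 1.17, and moved from rank 10 to rank 5. Which of Tspan7 and Cd81 was largest in Input depended on the length used, since with the longest transcript of each gene their shares were 15.3% and 20.1%. In Positive, Cd81 was also above Tspan7 by that length, with shares of 25.9% and 10.7%.

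**Figure D3:**
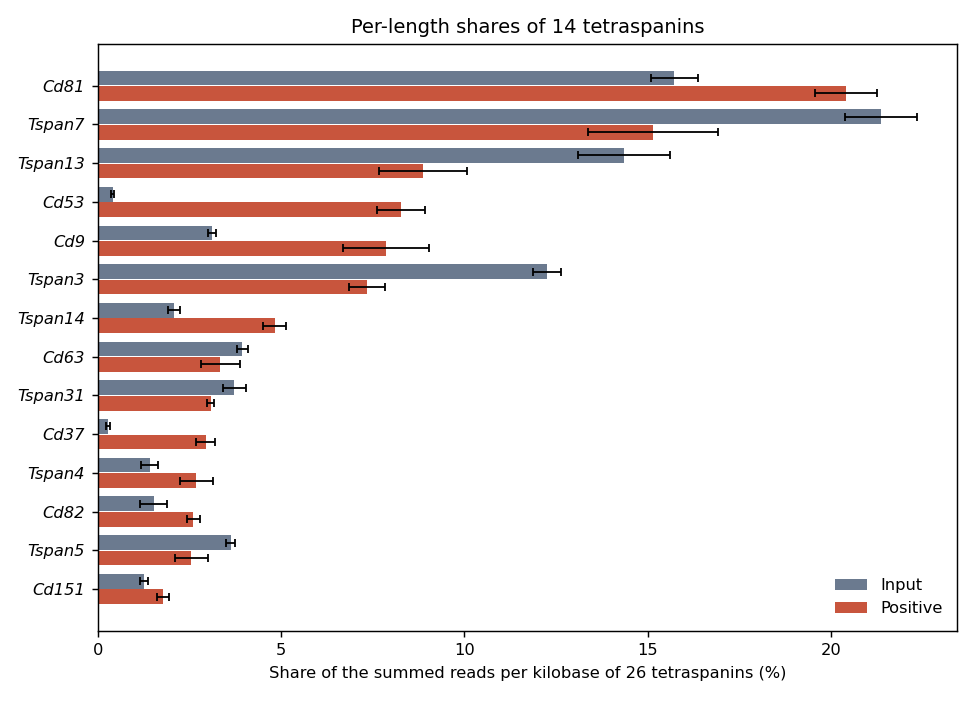
Share of the summed reads per kilobase of 26 tetraspanins (%), mean with SD of 3 libraries, for the 14 genes with the largest share in Positive. By this exon length Cd81 and Tspan7 are the 2 largest in both fractions, and Cd53 goes from 0.406% in Input to 8.26% in Positive.

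The other members of the superfamily were taken from a list of 22 genes, of which 17 were in the table. Of the 17, 4 were higher and 7 lower in Positive, with a median log2 fold change of -0.22. That was 64.7% called against 46% over all genes tested, where 24% were higher and 22% lower. Upk1b, first known as a uroplakin of the bladder lining, had 24.5, 42.3 and 31.5 scaled reads in Input and 357.4, 495.7 and 392.6 in Positive, with a log2 fold change of 3.65 ± 0.21 (SE). That placed it next to Cd37 in the family. Tspan4, a protein of migrasomes, rose by 1.38 ± 0.17, and Tspan14 by 1.65 ± 0.11 on the log2 scale (SE). Tspan32, known from blood cells, had a log2 fold change of 2.85 ± 0.46 (SE) but only 7, 4 and 2 raw reads in Input and 20, 46 and 31 in Positive, so that its size is uncertain.

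The genes of the list that fell were Rom1, Tspan17, Tspan15, Tspan33, Tspan12, Tspan3 and Tspan13. Rom1, a protein of photoreceptor discs, had -1.06 ± 0.26, Tspan17 -0.76 ± 0.11, Tspan15 -0.71 ± 0.12 and Tspan33 -0.58 ± 0.12 as log2 fold changes (SE). Tspan12, a coreceptor of Norrin signalling in vessels, had -0.46, Tspan3 -0.30 and Tspan13 -0.26. The call of Tspan12 was lost without the Input library of animal 207 or 208 or the Positive library of 208, with adjusted p (edgeR) = 0.102, 0.0853 and 0.0699. That of Tspan13 was lost without the Input library of animal 207 or 208 or the Positive library of 201 or 207, with adjusted p (edgeR) = 0.0818, 0.0868, 0.053 and 0.0553, and with limma, with 0.0548. Tspan18, Tspan31, Tspan11, Tspan5, Tspan9 and Tspan6 had values from -0.32 to 0.26 and did not pass. With the animal as a replicate block Tspan18 passed, with a log2 fold change of 0.25 (edgeR, adjusted p = 0.0457), and it also passed when Positive of animal 201 was dropped (0.38, adjusted p = 0.0265), while without Positive of animal 208 it had 0.11 (adjusted p = 0.459). Tspan1, Tspan8, Tspan10, Upk1a and Prph2 were not analysed here.

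**Figure D4:**
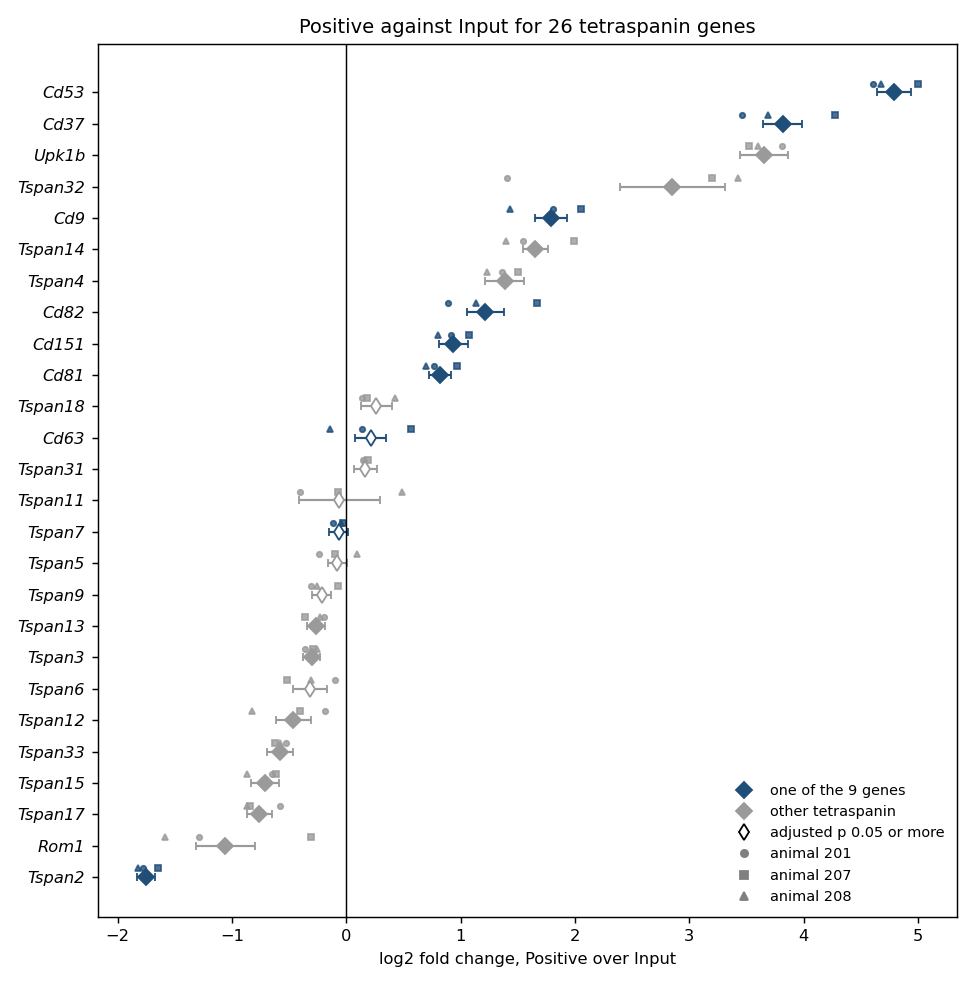
Log2 fold change of Positive over Input (horizontal axis) for 26 tetraspanins, with SE as bars, open symbols where the adjusted p-value was 0.05 or more, and small points for the ratio in each animal. Upk1b, Tspan14 and Tspan4 lie among the members that rose, and Tspan2 is the lowest of the family.

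Several tetraspanins of the TspanC8 subgroup guide the protease Adam10 to the cell surface, and the subgroup did not move as one. Of its 5 genes tested, Tspan14 was higher, Tspan15, Tspan17 and Tspan33 were lower, and Tspan5 had -0.08 ± 0.08 (SE) (edgeR, adjusted p = 0.467). In each animal Tspan14 was above the next highest of the 5, by 1.30 to 2.09 on the log2 scale. Adam10 itself rose by 0.91 ± 0.09 (SE).

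A list of 19 genes whose products are reported to bind tetraspanins had 17 in the table, with 7 higher and 1 lower, 47.1% in all, near the 46% over all genes. The highest were Clec7a, the beta-glucan receptor Dectin-1 that Cd37 binds, Itga6, a laminin receptor chain that pairs with Cd151, and the protease Adam17. Clec7a had 0, 2 and 2 raw reads in Input and 78, 146 and 49 in Positive, so that no fold is given. Itga6 had a log2 fold change of 2.52 ± 0.12 and Adam17 of 1.64 ± 0.13 (SE). Itgb1, the chain that joins Itga6, rose in every animal, by 1.47, 1.88 and 1.08 on the log2 scale, and Ptgfrn, an immunoglobulin protein bound to Cd9 and Cd81, by 0.82. Prkca, a protein kinase C that binds several tetraspanins, rose by 0.32. Igsf8, a relative of Ptgfrn, had 0.11 (edgeR, adjusted p = 0.277), and Pick1, which Tspan7 binds, -0.08 with 0.51. Hbegf, a growth factor precursor that associates with Cd9, was the gene that fell, with -0.47 (edgeR, adjusted p = 0.0347). In the fits without any 1 Input library or without the Positive library of animal 208, 0 genes of this list were lower by edgeR.

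Cd9, Cd63 and Cd81 are carried by extracellular vesicles, and 12 genes of endosomal sorting and vesicle release were therefore read beside them. Of these 7 were higher and 2 lower, 75% in all against 46% over all genes tested, with a median log2 fold change of 0.36 against -0.01. Rab27a, which docks secretory vesicles, rose by 1.29 ± 0.14, while its paralog Rab27b fell by 0.49 ± 0.12 on the log2 scale (SE). Vps4b rose by 0.75, Sdcbp, the syntenin that binds Cd63, by 0.68 and Pdcd6ip by 0.53. Flot1, a flotillin of lipid rafts, rose by 0.34. Its relative Flot2 was the other lower gene, with -0.24. In the fits without any 1 Input library or without the Positive library of animal 201 or 207, and with limma, 1 gene of the list was lower.

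Among the genes most like Cd53 across the 6 libraries, by Euclidean distance of centred log2 scaled reads out of 12116 compared, were Cx3cr1, whose promoter drives Cre here, and Ctss, a lysosomal protease. Their distances were 0.159 and 0.165, and their log2 fold changes 4.77 and 4.72. The 3 nearest to Tspan2 were Zcchc7, Fth1, the ferritin heavy chain, and the unnamed transcript C78859, at distances of 0.156, 0.165 and 0.193 and with log2 fold changes of -1.66, -1.71 and -1.77. With 3 libraries per fraction such a distance mainly reads the size of the difference between fractions.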

How the data were processed

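RNA of 3 mice was measured as Input and Positive fractions, and the animal number of the labels joins the 2 libraries of a mouse. The authors trimmed reads, aligned them with strand to mm10 in Strand NGS and deposited expected counts per Ensembl gene, which need not be whole, for genes with at least 20 reads in every library of 1 fraction. The deposited log2 values were normalized by the authors with DESeq and centred on the Input median, and served in an alternative only. Summed over the deposited genes, expected counts were 14879734 to 16488460 in Input libraries and 15790210 to 17757918 in Positive libraries. These sums leave out reads outside those genes. Without molecular identifiers a limit read from the counts holds for counting error alone.

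Expected counts were rounded and tested in R 4.3.3 with edgeR 4.0.16 (quasi-likelihood, median-of-ratios scaling, unpaired as in the study). Genes with more than 20 scaled reads in every library of 1 fraction were kept, 15343 in all. The Benjamini-Hochberg adjustment of p ran over these genes. Ratios per animal used a pseudocount of 1 scaled read. Alternatives were TMM and total count scaling, DESeq2 1.42.0, limma 3.58.1, other filters, lengths and pseudocounts, a replicate block and leaving out each library. The fit was tested on simulated data in which 200 genes changed, equally up and down, against 7053 called here. That setting did not cover the choice of scaling when many genes change. Deviations from the fraction means correlated weakly between the libraries of one animal. The correlations across genes were 0.193, 0.0585 and 0.12 for animals 201, 207 and 208. Between libraries of different animals they were -0.140 to 0.0317, close to the value of animal 207. The pairing itself comes from the animal number.

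Exon lengths came from GENCODE M21 and promoters from RefSeq, both on GRCm38. Both sources matched all 9 members, and no exon of another gene on the same strand overlapped them. Named were the 9 genes, the other tetraspanins in the table, the 3 highest and 3 lowest called partner and vesicle genes, and the 3 profiles nearest to the highest and the lowest member. Itgb1, Igsf8, Pick1, Adam10 and Pdcd6ip were named after their values were seen. The 2 most abundant genes of each marker list were also taken. Some genes that these rules took are not reported here. The 9 genes and all lists were chosen with earlier results of these data known, and the 4 cell-sorting lists are from the supplement of the study.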

Additional observations from a re-analysis of the deposited data

How the results depend on the processing

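Under every alternative run, Cd53, Cd37, Cd9, Cd82, Cd151 and Cd81 stayed higher and Tspan2 lower past the threshold, and Tspan7 stayed short of it. Cd63 was past it only when Positive of animal 208 was dropped. Leaving out each of the 6 libraries in turn, the log2 fold change of Cd63 was 0.034 to 0.38, 7 to 8 members and 5539 to 7260 of all genes were called. With the animal as a replicate block, 7 members and 7567 genes were called, Cd63 had 0.19 (edgeR, adjusted p = 0.152), and of the tetraspanins only the call of Tspan18 changed. Under total count scaling 41.6% of the calls over all genes were higher, and 52.2% with the median-of-ratios size factors, and Tspan9 and Tspan6 passed as lower, with -0.29 and -0.39 (edgeR adjusted p-values 0.0127 and 0.0466). Tspan6 also passed in limma, with -0.33 and 0.0367. The oligodendrocyte list had -0.86 under total count scaling. Leaving out one library gave list medians of -0.81 to -0.69 for oligodendrocytes, -0.065 to 0.049 for neurons, -0.34 to -0.042 for mural cells and 3.65 to 4.28 for border macrophages, and -0.36 to 0.22 for Tspan11, which passed in none of them. The causes were not tested.

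Per-length shares depend on the lengths and on the genes summed. With the longest transcript, Input and Positive shares were 15.3% and 10.7% for Tspan7, 20.1% and 25.9% for Cd81, 3.70% and 9.26% for Cd9, and 0.290% and 5.85% for Cd53. Over the 9 genes alone they were 41.7% and 24.0% for Tspan7, 30.7% and 32.3% for Cd81, 6.07% and 12.4% for Cd9, and 0.791% and 13.1% for Cd53, since fewer genes were summed. Pseudocounts moved no ratio beyond its SD. Depth limits Tspan32, Tspan11 and Clec7a.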

Other observations

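Some tetraspanin genes lie side by side in the genome (mm10), and neighbours did not always share a value. Cd151 and Tspan4 are 3766 bases apart on the plus strand of chromosome 7 and had log2 fold changes of 0.94 and 1.38, both called by edgeR. Tspan32 and Cd81, 33094 bases apart on the same strand of chromosome 7, had 2.85 and 0.82. Tspan18 and Cd82, 84605 bases apart on the minus strand of chromosome 2, had 0.26 and 1.21, and Tspan18 did not pass the test. Tspan11 and Tspan9, 7418 bases apart on opposite strands of chromosome 6, had -0.06 and -0.22, and neither passed.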
